A study of Mus musculus with 8 samples.

Results

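The genes described here encode the constitutive proteasome of the mouse retina, taken from an array table of 18193 named genes. They were chosen by symbol alone: all genes called Psma, Psmb, Psmc or Psmd followed by a number, without the inducible subunits Psmb8, Psmb9 and Psmb10. No measured difference is part of that rule, though it was chosen with earlier results of these data known. It gave 36 genes, each read at its brightest probe set. Of these, 34 passed a filter on low signal and 2 did not, namely Psma8, known as a testis form of an alpha subunit, and Psmb11, known from the thymus. Psmd5, Psmd9 and Psmd10 carry subunit symbols, but their products are known as chaperones that help assemble the regulatory particle and then leave it.

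Total RNA had been hybridised to Affymetrix expression arrays, 1 array per retina sample. Fresh mouse retina, at a labelled time of 0 d, made up the 4 control samples. The 4 injected samples carry the label of a compound-based treatment, and the labels used here give neither the compound, its dose, route and interval nor the strain, genotype or age of the mice. No sham-injected retina was among the 8 samples, and no label ties samples to separate mice, so the p-values rest on a spread that may be technical. Markers of retina were bright on all 8 arrays, and the rod genes Gnat1 and Sag lay above at least 93.5% and 98.9% of probe sets on each array, and Glul, the glutamine synthetase of Müller glia, above 99.4%.

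The proteasome is the cell's main machine for degrading proteins tagged with ubiquitin. Its core particle is a barrel of stacked rings of alpha and beta subunits: the alpha rings gate the entrance, and Psmb5, Psmb6 and Psmb7 carry the active sites that cut peptide bonds. The regulatory particle sits on the barrel, with a base whose ATPases (Psmc genes) unfold substrates and push them in, and a lid that removes the ubiquitin chain. Under interferon, cells can replace the active subunits by Psmb8, Psmb9 and Psmb10, which shifts the peptides made toward those presented to T cells. Photoreceptors turn over large amounts of protein, and the transcription factor NRF1 (gene Nfe2l1) is known to raise many proteasome genes together through antioxidant response elements.

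The sequences shown are the 250 bases before the RefSeq start of 4 genes on mouse build GRCm38.p6, because the comparison of constitutive with inducible active subunits turns on them; they are the pairs with both genes in the table of promoters used. Psmb5 and Psmb6 are the constitutive subunits at chr14:54617996-54618245 (reverse strand) and chr11:70525107-70525356 (forward strand). Psmb8 and Psmb9 are the inducible ones at chr17:34197945-34198194 (forward strand) and chr17:34187331-34187580 (reverse strand). Capitals mark an antioxidant response element (TGACNNNGC, either strand) in Psmb5 and Psmb6 and a gamma-activated site (TTCNNNGAA, either strand), which STAT factors can bind, in Psmb8.
Psmb5: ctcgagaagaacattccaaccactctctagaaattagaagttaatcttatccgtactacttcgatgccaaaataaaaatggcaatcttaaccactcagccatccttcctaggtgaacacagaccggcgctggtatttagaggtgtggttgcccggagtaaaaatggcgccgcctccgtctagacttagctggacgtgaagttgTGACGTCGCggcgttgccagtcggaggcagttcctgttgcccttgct
Psmb6: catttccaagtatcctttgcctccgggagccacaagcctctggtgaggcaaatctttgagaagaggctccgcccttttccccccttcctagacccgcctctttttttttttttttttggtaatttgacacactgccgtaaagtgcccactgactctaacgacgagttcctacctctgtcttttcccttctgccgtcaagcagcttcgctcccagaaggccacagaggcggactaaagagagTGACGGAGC
Psmb8: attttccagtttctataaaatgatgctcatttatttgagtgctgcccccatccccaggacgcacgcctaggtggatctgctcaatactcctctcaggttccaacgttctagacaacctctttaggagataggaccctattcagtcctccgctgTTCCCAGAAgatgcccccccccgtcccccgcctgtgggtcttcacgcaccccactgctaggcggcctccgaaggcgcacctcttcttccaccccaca
Psmb9: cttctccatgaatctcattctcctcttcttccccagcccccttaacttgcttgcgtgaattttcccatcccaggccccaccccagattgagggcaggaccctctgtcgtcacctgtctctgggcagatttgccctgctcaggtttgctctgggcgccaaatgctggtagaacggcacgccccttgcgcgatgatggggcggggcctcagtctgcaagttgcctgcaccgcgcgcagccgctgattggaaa
The element of Psmb5 begins 47 bases and that of Psmb6 9 bases before the start, and the site of Psmb8 97 bases before it. In Psmb9 neither motif, nor the interferon-stimulated response element (GAAA, any 2 bases, GAAA, either strand), was found in these letters. Of the 36 genes, 29 matched that table by symbol (not Psma8, Psmb1, Psmb2, Psmb7, Psmc3, Psmd3 and Psmd7), and 5 of them (Psmb5, Psmb6, Psmc6, Psmd12 and Psmd9) held the antioxidant element in this window, or 17.2% against 11.5% of all 27025 genes in the table. A CCAAT box (CCAAT, either strand) was in 12 of 29, or 41.4% against 37.5%. The interferon element was in 3 of 29 (Psmb3, Psmd4 and Psmd9; 10.3% against 3.46%) and the gamma-activated site in 0 of 29 (against 8.13%). Each motif was counted on its own, matches of different motifs may overlap, and a gene with several starts counted once if any window held the motif. Such a match is a description of the letters.

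Values are log2(intensity + 16) after quantile normalisation, and differences are injected minus control on that scale, so a difference of 1 is a doubling and small values slightly understate change. Some arrays stood apart in measures of the whole array. Injected replicate 3 had the lowest limma array weight (0.191, against 0.646 to 1.83 on the other 7). That weight is estimated from how far each array lies from the fit of the 2 groups, over all probe sets kept. The signal of the Gapdh probe set at the 3′ end over that at the 5′ end, a common measure of RNA and labelling quality, was 3.64, 3.95, 3.36 and 4.68 in control replicates 1 to 4 and 6.23, 5.26, 8.82 and 6.71 in injected replicates 1 to 4. All injected ratios lay above all control ratios (p = 0.0286 by a two-sided exact permutation test, which cannot go lower with 4 arrays a group; 0.0571 adjusted over both ratios examined), while the same ratio for beta-actin overlapped between groups (exact p = 0.486). The beta-actin ratios ran from 39.2 to 57.2 in control and from 43.3 to 59.7 in injected arrays, far above those of Gapdh on every array. A much stronger signal at the 3′ end was thus found in control arrays too. The part of either ratio in the differences below was not tested.

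Across the constitutive proteasome, differences between control and injected retina did not pass the test for any gene. By limma with Benjamini-Hochberg adjustment over all 27022 probe sets, 0 of 34 genes were higher and 0 lower (smallest adjusted p = 0.698), against a background of 0% of probe sets called. At an unadjusted p under 0.05 there was 1 gene, Psmd7, lower, or 2.94% of the 34. Of the 12886 genes tested 6.68% had such a p, 2.91% lower and 3.77% higher, and of all probe sets tested 6.99%, 3.33% lower and 3.66% higher. Over the 60 tested probe sets of the members, 3 had such a p, all lower (5%): that of Psmd7, a dimmer one of Psmd4 at -0.57 and a dimmer one of Psmc2 at -0.69. The unmoderated test also called 0 of 34, with 4 of 34 genes (11.8%) at an unadjusted p under 0.05, beside 6.74% of genes and 6.3% of probe sets tested by the same test. The 95% interval of the difference lay between -1 and 1, which leaves out a rise or fall by that much, for 30 of 34 genes, against 68.2% of all 12886 genes tested. The other 4 were Psmc3, Psmd7, Psmd8 and Psmd9. Members and all genes tested were not matched for signal in this comparison. In whole retina, fewer cells of a type and less RNA per cell cannot be told apart.

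The differences leaned to the lower side. Of the 34 genes, 25 had a negative and 9 a positive difference, with a median of -0.17, beside 6638 negative among 12886 genes tested (51.5%) with a median of -0.011. Without injected replicate 3 the median was -0.059 and 10 were positive. Set against each gene's control mean, the median over the 34 genes was -0.026, -0.19, -0.46 and -0.0072 in injected replicates 1 to 4 and ran from -0.032 to 0.051 in the controls. Injected replicates 1 and 4 thus lay within the control range, replicate 2 below it and replicate 3 furthest below. With each array centred on its own median in place of quantile normalisation, the median of all genes itself moved to -0.17 and that of the 34 to -0.36.

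**Figure D1:**
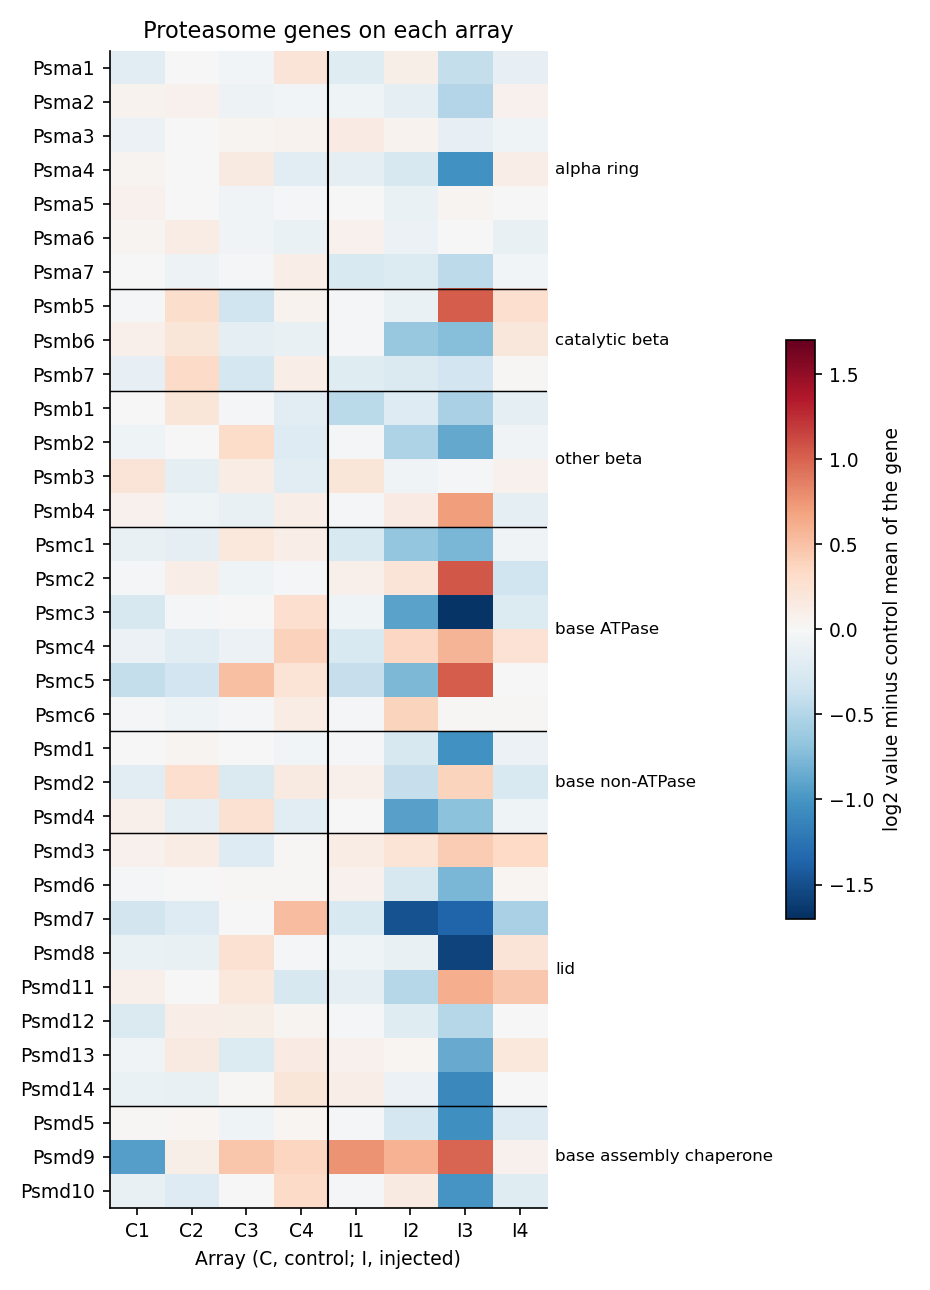
Log2 value on each of the 8 arrays minus the control mean of the gene, for the 34 tested genes in rows grouped by role and arrays in columns (C1 to C4 control, I1 to I4 injected); red is above and blue below the control mean. Column I3 holds the strongest colours in both directions, being the lowest of 8 arrays for 19 genes and the highest for 9.

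Within groups the genes were steady in control retina. The median SD over the 4 control arrays was 0.17 log2 units for the 34 genes and 0.22 for all genes tested. Over the 4 injected arrays it was 0.39 and 0.40. The genes were not matched for signal here either. Injected replicate 3 was the lowest of all 8 arrays for 19 of 34 genes (all genes tested, 29.8%) and the highest for 9 of 34 (all genes tested, 29.9%). That array therefore lay at an extreme for 28 of the 34 genes, and mostly at the low one.

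**Figure D2:**
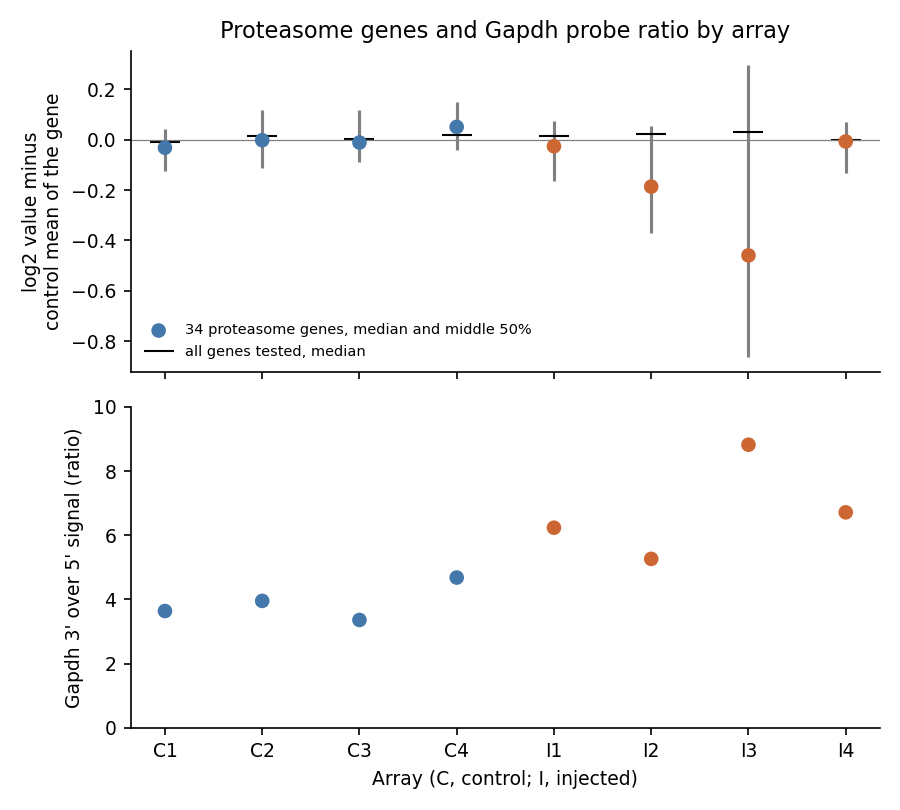
Top, median (point) and middle 50% (bar) over the 34 genes of the log2 value minus the control mean of each gene, by array, with the median over all genes tested as a dash; blue is control and orange injected. Bottom, ratio of the Gapdh 3′ to 5′ probe set signal. I3 has the highest ratio, 8.82, and the lowest median of the 34 genes, -0.46. Among the other injected arrays, I4, I1 and I2 have ratios of 6.71, 6.23 and 5.26 and medians of -0.0072, -0.026 and -0.19. The part of the ratio in the medians was not tested.

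The alpha ring, Psma1 to Psma7, forms the outer rings of the core particle and its gate. All 7 genes had a negative difference, none passed, and the differences ran from -0.33 for Psma4 to -0.0023 for Psma3, with a median of -0.16. Psma7, with the smallest p of the 7, read 13.13, 13.03, 13.08 and 13.24 in control replicates 1 to 4 and 12.86, 12.89, 12.68 and 13.07 in injected replicates 1 to 4. Its injected replicates 1 to 3 lay below all controls and replicate 4 among them, for a difference of -0.24 ± 0.17 (SE; 95% interval -0.62 to 0.13; limma adjusted p = 0.75). Psma3, Psma5 and Psma6 differed by little, within their SE, with SDs over the control arrays of 0.075, 0.057 and 0.11. Psma4 had the widest injected spread (SD 0.49), with injected replicate 3 at 11.91; without that array its difference was -0.10. For the other genes without that array the values were -0.081 for Psma1, -0.054 for Psma2 and -0.18 for Psma7, and with the deposited scaling Psma3, Psma5 and Psma6 were positive.

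The active subunits of the barrel had differences of both signs, and none passed. Psmb5, which carries the chymotrypsin-like activity, read 12.97, 13.31, 12.67 and 13.06 in control replicates 1 to 4 and 12.98, 12.89, 14.03 and 13.29 in injected replicates 1 to 4. Only injected replicate 3 lay above all controls, and the difference was 0.29 ± 0.28 (SE; 95% interval -0.33 to 0.92; limma adjusted p = 0.783), or 0.048 without that array. Psmb6, with the caspase-like activity, read 14.28, 14.39, 14.03 and 14.07 in control replicates 1 to 4 and 14.17, 13.55, 13.48 and 14.39 in injected replicates 1 to 4. Injected replicates 2 and 3 lay below all controls and the other two among them, for -0.30 ± 0.25 (SE; 95% interval -0.85 to 0.26; limma adjusted p = 0.772), or -0.15 without replicate 3. Psmb7, with the trypsin-like activity, read 12.66, 13.11, 12.49 and 12.90 in control replicates 1 to 4 and 12.59, 12.54, 12.46 and 12.81 in injected replicates 1 to 4. Its groups overlapped, with injected replicate 3 alone below all controls, and the difference was -0.19 ± 0.20 (SE; 95% interval -0.63 to 0.25; limma adjusted p = 0.795).

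The beta subunits without an active site, Psmb1 to Psmb4, had 2 positive and 2 negative differences, and none passed. Psmb1 read 12.36, 12.58, 12.36 and 12.20 in control replicates 1 to 4 and 11.92, 12.16, 11.82 and 12.21 in injected replicates 1 to 4. Injected replicates 1 to 3 lay below all controls, and the difference was -0.35 ± 0.18 (SE; 95% interval -0.75 to 0.057; limma adjusted p = 0.725), -0.28 without injected replicate 3. Psmb4 read 15.08, 14.94, 14.88 and 15.12 in control replicates 1 to 4 and 14.97, 15.14, 15.72 and 14.85 in injected replicates 1 to 4, with injected replicates 2 and 3 above all controls and replicate 4 below them. Its difference was 0.16 ± 0.22 (SE; 95% interval -0.33 to 0.66; limma adjusted p = 0.839) and turned to -0.019 without injected replicate 3. Psmb2 differed by -0.37 (-0.20 without that array), and Psmb3 by 0.049, which was negative with the deposited scaling and with median centring.

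**Figure D3:**
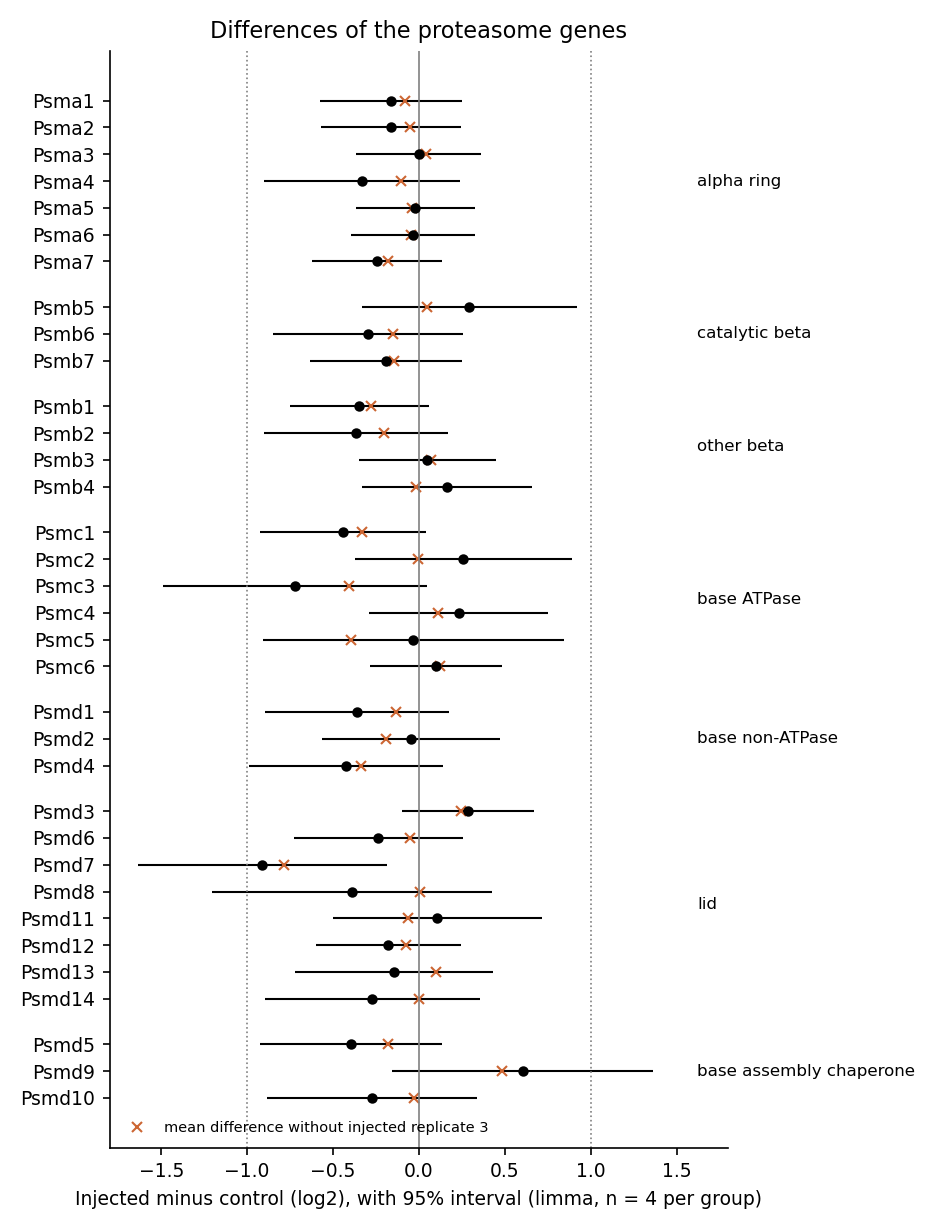
Difference between injected and control retina (log2, point) with its 95% interval from limma (bar, n = 4 per group) for the 34 tested genes by role; orange crosses give the difference refitted without injected replicate 3, and dotted lines mark -1 and 1. Of the intervals, 30 lie inside the dotted lines, and that of Psmd7 alone leaves out 0.

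The ATPases of the base, Psmc1 to Psmc6, form the ring that unfolds substrates. Of the 6 genes 3 had a negative and 3 a positive difference, and none passed. Psmc3 read 12.24, 12.47, 12.52 and 12.80 in control replicates 1 to 4 and 12.43, 11.60, 10.84 and 12.28 in injected replicates 1 to 4. Injected replicates 2 and 3 lay below all controls, the latter by the widest margin, and the difference was -0.72 ± 0.34 (SE; 95% interval -1.49 to 0.048; limma adjusted p = 0.725); without replicate 3 it was -0.41. Psmc1 read 12.71, 12.66, 13.01 and 12.95 in control replicates 1 to 4 and 12.57, 12.17, 12.05 and 12.77 in injected replicates 1 to 4, with injected replicates 1 to 3 below all controls, and differed by -0.44 ± 0.21 (SE; 95% interval -0.92 to 0.038; limma adjusted p = 0.725). Psmc4 read 13.69, 13.61, 13.70 and 14.18 in control replicates 1 to 4 and 13.54, 14.15, 14.38 and 14.04 in injected replicates 1 to 4, with control replicate 4 above the other controls, and differed by 0.23 ± 0.23 (SE; 95% interval -0.29 to 0.75; limma adjusted p = 0.792), 0.11 without injected replicate 3. Psmc2 at 0.26, Psmc5 at -0.033 and Psmc6 at 0.10 did not pass. Without injected replicate 3, where Psmc2 and Psmc5 were highest, they were at -0.0068 and -0.40, and Psmc6 was negative with median centring.

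The other base subunits are Psmd1, a scaffold, Psmd2, a docking site for carriers of ubiquitinated proteins, and Psmd4, a ubiquitin receptor. Psmd4 read 12.24, 12.00, 12.40 and 11.95 in control replicates 1 to 4 and 12.15, 11.23, 11.45 and 12.07 in injected replicates 1 to 4, with injected replicates 2 and 3 below all controls, and differed by -0.42 ± 0.25 (SE; 95% interval -0.99 to 0.14; limma adjusted p = 0.744). The other tested probe sets of Psmd4, both dimmer, had differences of -0.57 and 0.52, so the direction depends on the probe set. Psmd1 was nearly constant in control retina (SD 0.036). Its injected replicates 2 and 3, at 14.31 and 13.56, lay below controls that ran from 14.55 to 14.63, as did replicate 4 at 14.49. Its difference was -0.36, or -0.13 without injected replicate 3, and that of Psmd2 was -0.047, or -0.19 without it; none of the 3 passed.

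The lid held the largest of the 34 differences, but no lid gene passed. Psmd7, the inactive partner of the deubiquitinating enzyme Psmd14 in the lid, read 10.16, 10.25, 10.46 and 10.99 in control replicates 1 to 4 and 10.20, 8.98, 9.10 and 9.92 in injected replicates 1 to 4. Injected replicates 2, 3 and 4 lay below all controls and replicate 1 among them. The group values were 10.46 ± 0.38 (SD, n = 4) in control arrays and 9.55 ± 0.60 (SD, n = 4) in injected arrays, which differed by -0.91 ± 0.32 (SE; 95% interval -1.64 to -0.19; limma adjusted p = 0.698) at an unadjusted p of 0.0191. The unadjusted p was 0.0584 without control replicate 4 and 0.0558 without injected replicate 2, with differences of -0.72 and -0.72. Without control replicate 2 and injected replicate 3 together, 0 of the 34 genes, and so not Psmd7, had an unadjusted limma p under 0.05. Psmd7 was negative in all 19 alternative settings tried.

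Psmd3, a structural lid subunit, lay the other way. It read 10.64, 10.70, 10.36 and 10.60 in control replicates 1 to 4 and 10.71, 10.81, 11.00 and 10.92 in injected replicates 1 to 4, so all 4 injected values lay above all 4 controls; the gap between the groups was smaller than the SD of either. At the brightest probe sets no other of the 34 genes had groups that did not overlap (2.94%). Of the 12886 genes tested, groups did not overlap for 367 higher (2.85%) and 342 lower. Of all probe sets tested the share was 5.07%, 2.47% higher and 2.6% lower. Over the 60 tested probe sets of members 3 did not overlap (5%), the others being dimmer ones of Psma6 and Psmd4, both lower. The difference of Psmd3 was 0.28 ± 0.17 (SE; 95% interval -0.099 to 0.67; limma adjusted p = 0.744). Psmd14, the enzyme that cuts ubiquitin from substrates, read 16.35, 16.34, 16.48 and 16.67 in control replicates 1 to 4 and 16.58, 16.36, 15.36 and 16.45 in injected replicates 1 to 4. Only injected replicate 3 lay outside the controls, and the difference of -0.27 was 0.0024 without it. Psmd8, Psmd13 and Psmd6 were lowest on the same array, with differences of -0.39, -0.14 and -0.24 that became 0.0059, 0.099 and -0.053 without it. Psmd11 was at 0.11 (-0.064 without it) and Psmd12 at -0.18 (-0.076).

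The assembly chaperones of the base had 1 positive and 2 negative differences. Psmd9 read 8.14, 9.17, 9.55 and 9.44 in control replicates 1 to 4 and 9.84, 9.67, 10.07 and 9.14 in injected replicates 1 to 4, with injected replicates 1 to 3 above all controls and control replicate 1 far below the others. Its difference was 0.60 ± 0.34 (SE; 95% interval -0.16 to 1.36; limma adjusted p = 0.735), 0.48 without injected replicate 3 and 0.29 without control replicate 1. Another probe set of Psmd9, nearly as bright (control mean 8.99, against 9.08), had a difference of -0.70 (unadjusted p = 0.0641, limma), so the direction depends on the probe set. Psmd5 read 13.37, 13.38, 13.27 and 13.38 in control replicates 1 to 4 and 13.33, 13.05, 12.30 and 13.13 in injected replicates 1 to 4, with injected replicates 2 to 4 below all controls, and differed by -0.40 ± 0.24 (SE; 95% interval -0.93 to 0.14; limma adjusted p = 0.744), -0.18 without injected replicate 3. Psmd10, also called gankyrin, differed by -0.27, or -0.029 without that array, and none of the 3 passed. Among the 2 genes below the filter, Psma8 read from 6.93 to 9.23 and Psmb11 from 5.44 to 8.28 over the 8 arrays, with overlapping groups.

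Several probe sets reported on the same gene, and they often differed. The 36 genes had 74 probe sets, 60 of which passed the filter, and 15 genes had several that passed. In 12 of these 15 the probe sets had differences of opposite sign. Psmd6 shows the pattern: its brightest probe set read 15.71, 15.37, 14.86 and 15.67 in injected replicates 1 to 4 and another read 14.92, 14.91, 15.74 and 14.99, so that injected replicate 3 was the lowest of the 4 by the former and the highest by the latter. The control means of those probe sets were 15.64 and 14.93. For Psma6 the differences ran from -0.37 to 0.56 over 3 probe sets, and for Psmd13 from -0.14 to 1.35. After subtracting control means, the median range between probe sets of a gene was 1.26 log2 units in injected replicate 3, 0.42 to 0.72 in the other injected arrays and 0.23 to 0.36 in the controls, where the subtraction itself narrows it. Of the 34 genes, 5 are read from probe sets named s_at or x_at, which can bind related transcripts.

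**Figure D4:**
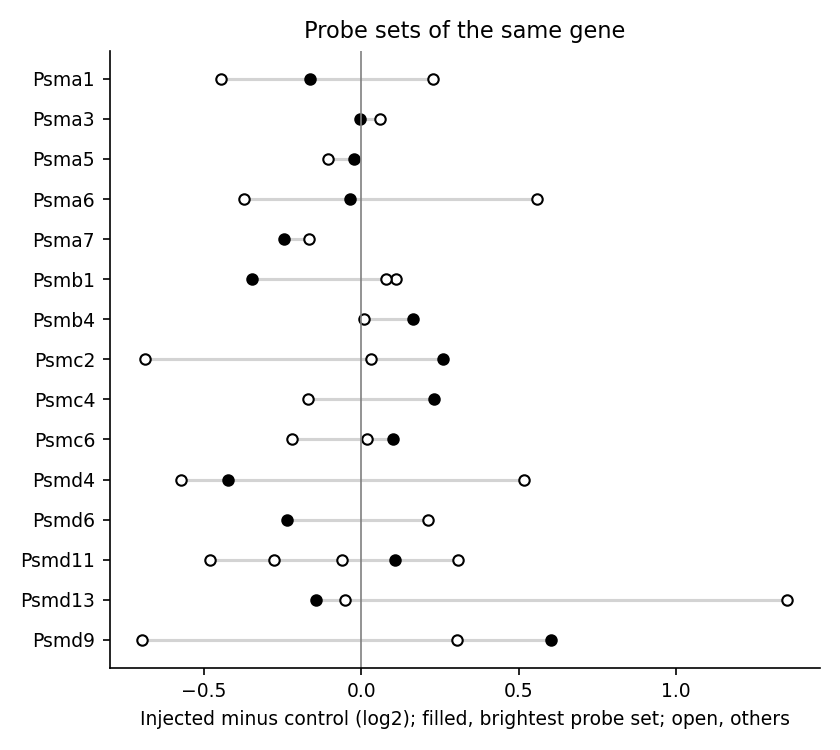
Difference between injected and control retina (log2) for each tested probe set of the 15 genes with several; filled points are the brightest probe set of the gene, used elsewhere, and open points the others. In 12 of these 15 genes the points lie on both sides of 0.

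Each active constitutive subunit has an inducible counterpart that can take its place, and the pairs were compared by their change. For each array the log2 value of the constitutive gene was subtracted from that of the inducible gene, and only the change of that value between groups is read. Psmb9 read 9.05, 9.46, 9.39 and 9.89 in control replicates 1 to 4 and 10.47, 10.40, 10.86 and 9.73 in injected replicates 1 to 4, a difference of 0.92 ± 0.28 (SE; 95% interval 0.29 to 1.55; limma adjusted p = 0.597). Injected replicates 1 to 3 lay above all controls and replicate 4 among them. Against Psmb6 and relative to the control mean, it was at 1.05, 1.59, 2.13 and 0.086 in injected replicates 1 to 4, and the change was 1.21 ± 0.49 (SE; p = 0.0857 by the two-sided exact permutation test and 0.129 after adjustment over 3 pairs). Psmb10 read 11.25, 11.55, 10.94 and 10.67 in control replicates 1 to 4 and 11.68, 11.25, 11.54 and 11.88 in injected replicates 1 to 4 and differed by 0.49 ± 0.24 (SE; 95% interval -0.054 to 1.03; limma adjusted p = 0.725). Against Psmb7 it was at 0.79, 0.40, 0.77 and 0.77 in injected replicates 1 to 4, all above the controls, which ran from -0.55 to 0.28; the change was 0.68 ± 0.21 (SE; p = 0.0286 by the two-sided exact permutation test and 0.0857 after adjustment over 3 pairs); the unadjusted p is the lowest this design allows.

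Psmb8 turned on 1 array. It read 9.55, 9.72, 9.11 and 9.85 in control replicates 1 to 4 and 10.25, 10.40, 11.50 and 6.81 in injected replicates 1 to 4, with injected replicates 1 to 3 above all controls and replicate 4 far below them. Against Psmb5 it was at 0.72, 0.96, 0.91 and -3.04 in injected replicates 1 to 4, and the change was -0.11 ± 0.98 (SE; p = 1 by the two-sided exact permutation test and 1 after adjustment over 3 pairs). Without injected replicate 4 it was 0.88, and that of Psmb9 against Psmb6 was 1.60. That array holds the lowest injected value of both pairs, and without it all injected values lie above all controls, so no p is read from its omission. Without any other single array, the adjusted p of the exact permutation test was at least 0.886 for Psmb8, 0.129 for Psmb9 and 0.0857 for Psmb10 against their counterparts. With the deposited scaling the changes were 1.39 for Psmb9 and 0.73 for Psmb10, both at an adjusted p of 0.0429 (exact permutation over 3 pairs). In the setting used throughout, 0 of the 3 pairs passed, and the pairs were chosen with a higher Psmb9 already known from these data. Interferon-response markers lay higher in the same arrays by their median. Of 12 markers 10 were tested, and their median over the control mean ran from 0.51 to 1.31 in injected and from -0.18 to 0.28 in control arrays. Of the 10, 9 had a positive difference and 1, Irf7, a negative one. Groups did not overlap for 5, all higher (all genes tested, 2.85% higher). On injected replicate 4, 3 of the 10 lay below their control mean. The part of these markers in the pairs was not tested.

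**Figure D5:**
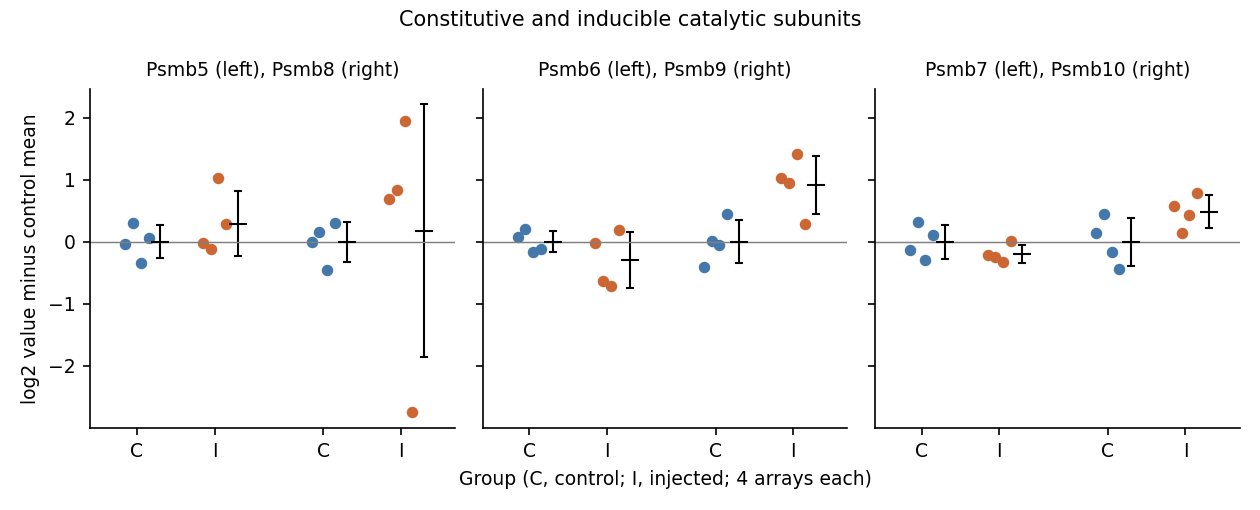
Log2 value minus the control mean of the gene for each active constitutive subunit (left in each panel) and its inducible counterpart (right), in control (C, blue) and injected (I, orange) arrays; black marks give the mean and SD (n = 4). The mean differences of Psmb9 and Psmb10 are 0.92 and 0.49, and Psmb9 of injected replicate 4 lies among the controls, and the wide bar of Psmb8 comes from injected replicate 4 at 6.81.

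The rest of the ubiquitin and proteasome pathway, in lists drawn up by known role, had 0 genes past limma's adjusted threshold, higher or lower. Of the activator caps and the inhibitor Psmf1, 4 of 5 were tested and all 4 had positive differences, with a median of 0.18; without injected replicate 3 the median was 0.0094, and Psme3 and Psme4 were negative, at -0.0065 and -0.074. Psme1, a subunit of the interferon-inducible cap, read 9.02, 8.84, 8.67 and 8.96 in control replicates 1 to 4 and 9.22, 9.34, 10.84 and 9.06 in injected replicates 1 to 4. All injected values lay above all controls, by little in replicate 4 and most in replicate 3, and the difference was 0.74 ± 0.37 (SE; 95% interval -0.089 to 1.57; limma adjusted p = 0.725), 0.34 without replicate 3. Psmf1 was at 0.35 (0.025 without that array). The 5 chaperones that assemble the core (Psmg1 to Psmg4 and Pomp) all had negative differences with a median of -0.16, with Psmg1 at -0.18 and Psmg4 at -0.34. Without injected replicate 3 that median was -0.031, Psmg1 was at -0.11 and Psmg4 at -0.20, and Psmg3 and Pomp were positive, at 0.063 and 0.038.

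Proteins that bind the proteasome gave 5 tested genes of 10, 3 positive and 2 negative, with the deubiquitinase Usp14 at 0.63 (0.19 without injected replicate 3, and -0.53 at another probe set) and the thioredoxin-like Txnl1 at 0.22 (0.073 without that array, and -0.70 at another probe set). Of the regulators, 5 of 8 were tested, 3 positive and 2 negative. Nfe2l1, which encodes NRF1, read 11.14, 11.44, 10.99 and 11.13 in control replicates 1 to 4 and 11.02, 10.69, 11.23 and 11.45 in injected replicates 1 to 4, with overlapping groups and a difference of -0.076 ± 0.21 (SE; 95% interval -0.56 to 0.40; limma adjusted p = 0.926), and its relative Nfe2l2 was at -0.061 (0.046 without injected replicate 3). By smallest p the 2 leading tested regulators were Nfe2l1 and Mafk, a small Maf protein that pairs with NRF1, at 0.19 (-0.068 without that array). Maff and Nfe2l3 lay below the filter. Maff read 8.66, 8.77, 9.72 and 9.19 in control replicates 1 to 4 and 6.75, 7.25, 8.75 and 6.72 in injected replicates 1 to 4. In the limma fit without the filter, Maff differed by -1.72 (95% interval -2.83 to -0.61, unadjusted p = 0.00713) and Nfe2l3 by 0.79. In that fit 0 probe sets passed. Carriers of ubiquitinated proteins and the segregase that extracts them gave 7 tested of 9, 2 positive and 5 negative, among them the segregase Vcp at -0.40 (0.17 at another probe set) and its cofactor Ufd1 at -0.24. Of the ubiquitin genes and their activating enzymes 1 of 6 was tested, the activating enzyme Uba6, at 0.13 (0.054 without injected replicate 3, and -0.43 at another probe set).

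Markers of the cells that a retina sample can hold were summed on the same arrays, as normalised intensity over the tested genes of each list. The 7 of 8 microglia and macrophage markers that were tested (Aif1, at -1.17, lay below the filter) summed to 29141 to 51496 in control and 62773 to 160159 in injected arrays. These sums did not overlap, nor did the groups for 5 of the 7 genes singly. Of all 12886 genes tested, groups did not overlap for 367 higher and 342 lower. The bright Csf1r weighs most in the microglia sum, and another of its probe sets had a difference of -0.26. The 7 cone markers, of 7, summed to 90141 to 99373 in control and 40421 to 89159 in injected arrays, without overlap, and 4 of the 7 did not overlap singly. The sums overlapped for the 7 of 8 rod markers, at 224222 to 247944 in control and 146851 to 248127 in injected arrays. They also overlapped for the 6 of 6 Müller glia markers, at 183983 to 196930 in control and 152862 to 184366 in injected arrays. Singly, Pde6b of the rod list and Car14 of the Müller glia list did not overlap, both lower. Differences were negative for 6 of the 7 rod and 5 of the 6 Müller glia genes. The 5 of 6 ganglion cell markers summed to 109714 to 119970 in control and 90913 to 107525 in injected arrays, without overlap. The bright Nefl weighs most in that sum. Differences were negative for all 5 genes, with a median of -0.26. Only Sncg and Nefl of these 5 did not overlap singly, and the medians of the list by array did overlap (-0.23 to 0.067 in control and -0.39 to -0.058 in injected arrays, against control means).

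Tissue next to the retina also varied. The 8 of 9 pigment epithelium markers (Best1 lay below the filter) summed to 98229 to 360003 in control and 52883 to 119049 in injected arrays, and the 5 of 9 lens markers (Bfsp1, Bfsp2, Cryaa and Mip lay below it) to 984 to 14892 in control and 4366 to 72981 in injected arrays, so that both varied several times over within a group. The sums of both lists overlapped between the groups. Differences were negative for all 8 tested pigment epithelium genes, with a median of -1.06. They were positive for all 5 tested lens genes, with a median of 2.46. Among the tested genes of these lists 0 passed, and Rpe65 (lower) and Crygf (higher) did not overlap singly. Of the 5 red blood cell markers 0 were tested, with Alas2 and Hba-a1 below the filter. Over the same arrays the 7 alpha ring genes summed to 233439 to 243978 in control and 213948 to 241259 in injected arrays. The part of these cell types in the proteasome values was not tested.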

How the data were processed

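Values are the linear intensities of 1 array per sample, as deposited by the authors, 1 value per probe set; the table holds 45101 probe sets. Software and genome build: not given in the sources used here. The means of the arrays without the outer 2% of probe sets at each end are equal, so the deposited intensities had been scaled to a common level, which hides a change in total RNA. The 64 array controls served as quality measures only. Probe sets with 1 symbol in the platform annotation (34945) were named, and those with several (932) or none (9160) were not.

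The medians of the 8 arrays differed by up to 1.55 times, so the arrays were quantile normalised, and log2(intensity + 16) was taken. Probe sets with a mean at or above the 40th percentile (8.50 log2 units) were kept, 27022 in all. Groups of 4 were compared with limma 3.58.1 in R 4.3.3 (lmFit and eBayes, with statmod 1.5.0) and Benjamini-Hochberg adjustment over all probe sets kept, at 0.05. The script was tested on simulated data. Pairs of subunits were compared by exact two-sided permutation over the 70 assignments of arrays to groups, adjusted over 3 pairs. Plots were made in Python 3.11.15 (matplotlib 3.10.9). Precision is limited by the number of arrays.

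Named are all members, with values on each array for the active subunits, for the smallest p in each direction of each role and for an unadjusted p under 0.05; in other pathway lists, the 2 genes with the smallest p. Psmd14, Psmc1, Nfe2l1's relative Nfe2l2, the values of Maff and Nfe2l3, and single probe sets beside the brightest were added after their values were seen. Members and lists were chosen with earlier results of these data known. Nothing says that replicate numbers of the titles mark shared animals, and the fit with them as a block is among the alternatives. Other alternatives were the pseudocount, no filter, other scalings, other priors, array weights, 1 probe set per gene, other probe sets for a gene, and leaving out arrays.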

Additional observations from a re-analysis of the deposited data

Results flagged for a closer look

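In 4 of 82 groups of 4 arrays checked, 1 array lay far from the other 3 for the gene (the gap to the nearest, as a share of the group's range, passed Dixon's 95% critical value), and chance alone gives about 1 in 20 groups. The ATPase gene Psmc4 read 14.18 in control replicate 4, against 13.61 to 13.70 in the other controls. The ATPase gene Psmc6 read 15.44 in injected replicate 2, against 15.05 to 15.08 in the other injected arrays. The lid gene Psmd13 read 9.53 in injected replicate 3, against 10.43 to 10.56 in the others. The chaperone gene Psmd5 read 13.27 in control replicate 3, against 13.37 to 13.38 in the other controls, which were close together.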

How the results depend on the processing

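No member passed limma's adjusted threshold in any setting tried. Over all probe sets 0 passed, but 8 did with array weights and 34 without injected replicate 4 (0 to 34 when leaving out each array). The median of the members was -0.36 with median centring, where that of all genes was -0.17, and -0.24 to -0.059 when leaving out each array. With the replicate numbers as a block 0 probe sets and 0 members passed and the median stayed at -0.17; the deviations of arrays with the same number correlated at 0.084, 0.0054, -0.029 and 0.041, not every array correlated best with its own number, and an exact sign-flip test over same-numbered arrays, chosen after seeing the data, gave p = 1, 0.25 and 0.125 for the 3 pairs, the last being the smallest it allows. With the deposited scaling, Psmb8 minus Psmb5 turned to 0.067, while Psmb9 minus Psmb6, at 1.39, and Psmb10 minus Psmb7, at 0.73, passed. Median centring shifts both genes of a pair equally on each array, so it must give the same pair values and is no separate check. Leaving out each array gave -0.47 to 0.88, 0.93 to 1.60 and 0.49 to 0.77 for the same pairs. Small differences that changed sign were, with the deposited scaling, Psma3 to 0.12, Psma5 to 0.016, Psma6 to 0.089 and Psmb3 to -0.0036; with median centring, Psmb3 to -0.19, Psmc6 to -0.064 and Psmd11 to -0.068; with array weights, Psma3 to 0.061, Psmd11 to -0.10 and Psmd13 to 0.041; and without control replicate 2 and injected replicate 3 together, Psma3 to 0.038, Psmb4 to -0.041, Psmd11 to -0.060 and Psmd13 to 0.15. Leaving out each array gave ranges that span 0 of -0.051 to 0.039 for Psma3, -0.043 to 0.0096 for Psma5, -0.076 to 0.0089 for Psma6, -0.012 to 0.12 for Psmb3, -0.019 to 0.27 for Psmb4, -0.0068 to 0.46 for Psmc2, -0.40 to 0.21 for Psmc5, -0.19 to 0.068 for Psmd2, -0.59 to 0.0059 for Psmd8, -0.064 to 0.30 for Psmd11, -0.25 to 0.099 for Psmd13 and -0.41 to 0.0024 for Psmd14. The cause was not tested.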
